A study of Mus musculus with 16 samples.

Results

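The loss of Rictor in injured colonic epithelium was examined by comparing 4 cKO_DSS libraries with 4 control libraries (WT_DSS in the labels), 8 of the 16 RNA sequencing libraries in the study. The labels give the genotype of the control mice as Villin-Cre and that of the conditional knockout (cKO) mice as Rictor Flox with Villin-Cre. Every group therefore carried the Cre transgene, whose Villin promoter drives recombinase in intestinal epithelial cells, and the control label names no floxed allele. All 8 libraries came from colonic epithelial cells of mice given 3% DSS (dextran sulfate sodium, a sulfated polymer toxic to the colonic lining), and the other 8 came from the same genotypes on normal water. The labels used here give neither age, sex nor the length of the DSS course. Nothing in them ties each library to an animal of its own, so the tests weigh the genotype difference against the spread of these libraries, which may be technical. Of 56268 genes in the deposited table, 13255 had at least 1 FPKM (fragments per kilobase of gene, scaled to library size) in at least 4 of the 16 libraries and were compared. Each fold change below is a difference of mean log2(FPKM + 1) with its standard error (SE), and it understates the change of genes near 1 FPKM.

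Rictor is the subunit that defines mTOR complex 2, a kinase assembly that acts downstream of insulin and growth factor receptors and phosphorylates AKT, SGK and PKC kinases at their hydrophobic motifs. Through these kinases the complex is linked to FOXO transcription factors, to the actin cytoskeleton, to glucose and lipid metabolism and to sodium transport. In the colon, absorptive colonocytes move salt and water and carry the tight junctions of the barrier, goblet cells secrete mucus, and crypt progenitors rebuild the layer after injury.

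The 8 DSS libraries held 13934619 to 16414914 reads, recovered from the FPKM values. Xist, which is expressed in female cells, was at 20.46 FPKM in WT_DSS 2 and at 0.00402 to 0.0268 FPKM in the other WT_DSS libraries. WT_DSS 2 also held the Y-linked Ddx3y, at 9.17 FPKM, and all 8 DSS libraries held it at 9.17 to 17.8 FPKM. On water Xist was at 33.2 to 104.9 FPKM in all 8 libraries and Ddx3y was at 0 to 6.28 FPKM, so treatment moved together with sex-linked transcripts, and the parts of both in any difference between DSS and water cannot be told apart. The part of WT_DSS 2's Xist level in the results was not tested beyond the counts without that library. In a principal component analysis of all 16 libraries, cKO_DSS 3 and cKO_DSS 4 lay at -33.9 and -32.2 on the second component, which held 14.96% of the variance, while cKO_DSS 2 lay at -17.1 and cKO_DSS 1 at 2.39. The 4 WT_DSS libraries lay between 1.31 and 21.2 on that component. All 10 pan-epithelial markers on the list used to check the tissue passed the FPKM filter, and no endothelial marker of 11 did.

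Rictor transcripts (chr15:6708379-6800401, mm10) were measured in every library, at a lower mean in cKO_DSS, and the difference did not pass the test. Rictor FPKM was 3.85, 3.69, 2.82 and 4.16 in WT_DSS 1 to 4 and 2.96, 2.78, 1.92 and 2.36 in cKO_DSS 1 to 4. The groups overlapped, since cKO_DSS 1 lay above WT_DSS 3. The cKO_DSS mean of 2.51 ± 0.464 (SD, n = 4) was 69.0% of the WT_DSS mean of 3.63 ± 0.572 (SD, n = 4). The difference was -0.40 ± 0.12 (SE, adjusted p = 0.0761 in limma), and an exact two-sided permutation test gave p = 0.0571 (4 against 4 libraries cannot go below 0.0286). Without cKO_DSS 3 and 4 the difference was -0.25 (adjusted p = 0.491), and without cKO_DSS 1 and 2 it was -0.55 (adjusted p = 0.0205). The gene model counted is not stated to be limited to the floxed exons, so a whole-gene value does not measure how complete the deletion was. None of the 11 subunits and partners of the mTOR complexes passed the test.

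Across all genes, 491 of 13255 passed an adjusted p of 0.05 (3.70%). Of these, 269 were higher in cKO_DSS (2.03%) and 222 were lower (1.67%). An unadjusted p under 0.05 was found for 2684 genes (20.2%), and the median fold change over all genes was -0.01. The count depended on single libraries. It was 78 without WT_DSS 2, 107 without cKO_DSS 3, 150 without WT_DSS 1, 164 without cKO_DSS 4 and 248 without WT_DSS 4, and it rose to 886 without cKO_DSS 1. The 4 values of each group did not overlap in 1326 genes (10.0%).

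The 491 genes were then divided by what remained when cKO_DSS 3 and 4, the libraries that stood apart, were left out. In that fit 33 genes passed the adjusted threshold (0.249%) and 1604 had an unadjusted p under 0.05 (12.1%). Of the 33, 27 were among the 491 and kept their direction, 17 higher and 10 lower (0.204% of all genes, or 0.128% and 0.0754% by direction). The other 6 of the 33 passed in that fit but not with all libraries. Picked from the results, they were Zdhhc13, Appl1, Spred1, Csad, Cav2 and Septin11. The 27 are called held genes below. Another 450 of the 491, 245 higher and 205 lower, kept their direction and an unadjusted p under 0.05 but not the adjusted threshold, and are called weakened. For 14 genes, 7 in each direction, the unadjusted p was 0.05 or more, and these rested on cKO_DSS 3 and 4. No gene changed direction. Leaving out cKO_DSS 1 and 2 in place of 3 and 4, which removes as many libraries, left 2129 genes past the threshold (16.1%), 434 of the 491 among them, and 4412 with an unadjusted p under 0.05 (33.3%).

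The borders between these classes were narrow. The held genes nearest the border, Gm10036 and Asap1, had an adjusted p of 0.0482 without cKO_DSS 3 and 4, and the weakened genes nearest to it, Prdx4 and Cyp2d12, had 0.0508 and 0.0600. At the other border, the weakened genes Grasp and Ldah had unadjusted p values of 0.0492 and 0.0474, while the resting genes ran from 0.0501 for Yif1b to 0.0642 for Rpl37a. The fold change measured without cKO_DSS 3 and 4 was a median 1.06 times that of all libraries in held genes, 0.863 times in weakened genes and 0.568 times in resting genes. Of the 491 genes, 311 kept at least 80% of their fold change and 5 kept under 50%.

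**Figure D1:**
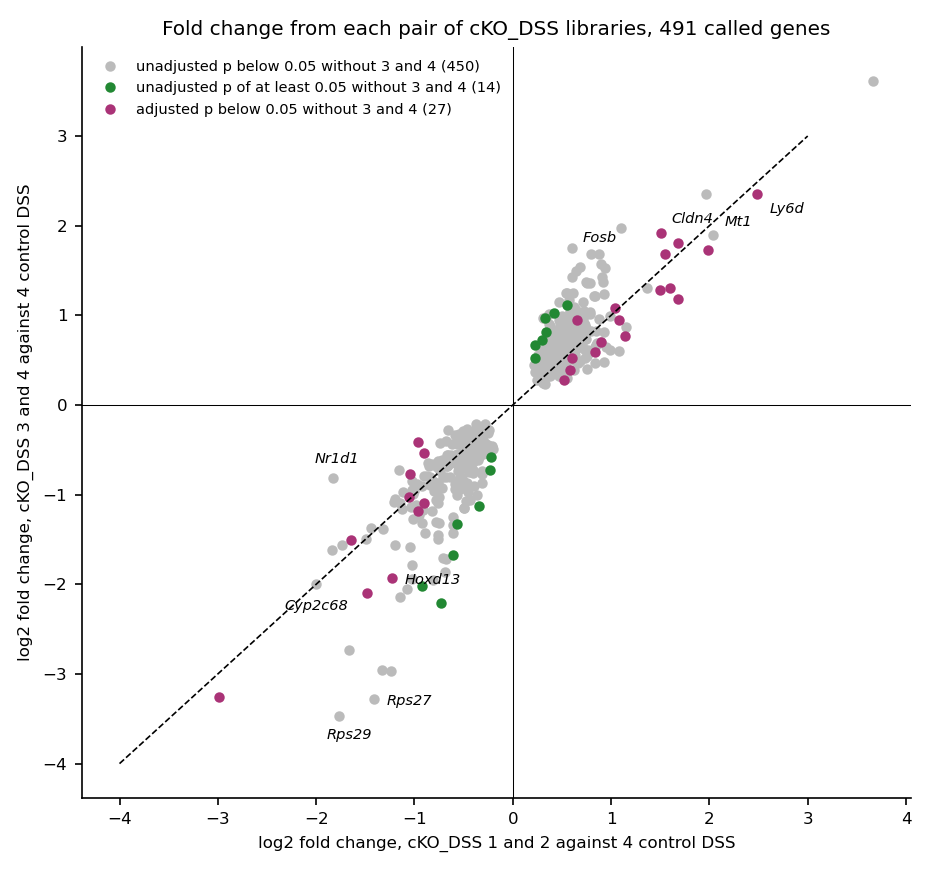
Log2 fold change of the 491 called genes from cKO_DSS 3 and 4 (vertical axis) against that from cKO_DSS 1 and 2 (horizontal axis), each against the same 4 WT_DSS libraries, so the axes share controls. Points are genes coloured by class, with 27 held, 450 weakened and 14 resting on cKO_DSS 3 and 4, and the dashed line marks equal fold changes. Resting genes had smaller fold changes from cKO_DSS 1 and 2 than from cKO_DSS 3 and 4, which the division itself favours.

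Ly6d had the largest of the 17 held rises. Ly6d, a GPI-anchored protein of the LY6 family (chr15:74762056-74763620), was at 1.07, 0.655, 2.88 and 1.39 FPKM in WT_DSS 1 to 4 and at 8.25, 18.1, 14.3 and 8.57 FPKM in cKO_DSS 1 to 4. Every cKO_DSS library lay above every WT_DSS library, and the mean was 8.23 times higher (2.42 ± 0.28 SE on the log2 scale, adjusted p = 0.000668). Without cKO_DSS 3 and 4 the difference was 2.49.

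Cldn4, a claudin of epithelial tight junctions (chr5:134945119-134946934), was at 19.2, 14.8, 17.7 and 16.3 FPKM in WT_DSS 1 to 4 and at 52.8, 47.3, 58.4 and 76.2 FPKM in cKO_DSS 1 to 4. The groups stood clearly apart, with means of 17.0 ± 1.85 and 58.6 ± 12.5 (SD, n = 4). The difference was 1.71 ± 0.17 (adjusted p = 0.000249), and 1.51 without cKO_DSS 3 and 4.

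Clca4a, a chloride channel regulator of the CLCA family made by absorptive colonocytes, was at 38.9 to 42.8 FPKM in the WT_DSS libraries and at 96.4 to 117 FPKM in the cKO_DSS libraries. Its groups had small spreads, 40.7 ± 1.78 against 108.5 ± 9.73 (SD, n = 4), and the difference was 1.39 ± 0.16 (adjusted p = 0.000592). The antisense transcript Gm16233 overlaps Clca4a on the other strand and was also held, at 0.96. The counting is not stated to use strand, so reads of this pair cannot be told apart.

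Among other LY6 members, Ly6g6c was at 0.896, 1.43, 0.911 and 1.06 FPKM in WT_DSS 1 to 4 and at 2.66, 3.88, 3.34 and 3.42 FPKM in cKO_DSS 1 to 4. It rose by 1.06 ± 0.11 (adjusted p = 0.000414). Its gene model overlaps Mpig6b on the other strand, so their reads cannot be told apart either. Ly6c1, whose close copy Ly6c2 could share its reads, was at 7.18 to 12.1 FPKM in WT_DSS and at 33.2, 35.5, 31.8 and 18.02 FPKM in cKO_DSS 1 to 4. The cKO_DSS 4 value was the lowest of its group but still above every WT_DSS library, and the difference was 1.43 ± 0.26 (adjusted p = 0.0117).

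Aldh1a3, which oxidises retinaldehyde to retinoic acid, was at 0.702, 1.22, 0.480 and 2.27 FPKM in WT_DSS 1 to 4 and at 7.67, 3.53, 4.66 and 3.65 FPKM in cKO_DSS 1 to 4. Its spread was wide in both groups, and the difference was 1.46 ± 0.23 (adjusted p = 0.00552). Slc17a9, the transporter that loads ATP into vesicles, was at 21.1, 20.9, 22.5 and 24.2 FPKM in WT_DSS and at 38.0, 32.8, 41.7 and 45.7 FPKM in cKO_DSS, a rise of 0.80 ± 0.09 (adjusted p = 0.000592). Its groups were tight and did not overlap.

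Phldb2, which anchors microtubules at the basal cortex, was at 0.745 to 0.940 FPKM in WT_DSS and at 1.88 to 2.53 FPKM in cKO_DSS (0.80 ± 0.10). The other held rises of named protein-coding genes were the collagen chain Col8a1 (1.02), the lactosylceramide synthase B4galt6 (0.71), the ARF GTPase-activating protein Asap1 (0.57), the large membrane scaffold Ahnak (0.49) and the RUN domain protein Rundc3b (0.40). Rundc3b had the smallest held difference, and its call was lost without WT_DSS 2, WT_DSS 4 or cKO_DSS 4. The remaining held rises, not named by the rule but picked from the results, were the noncoding or uncharacterised transcripts Gm29051 (1.61), 3930402G23Rik (1.75) and Gm45042 (1.86). The last 2 lie 1.191 kb apart on chromosome 8.

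**Figure D2:**
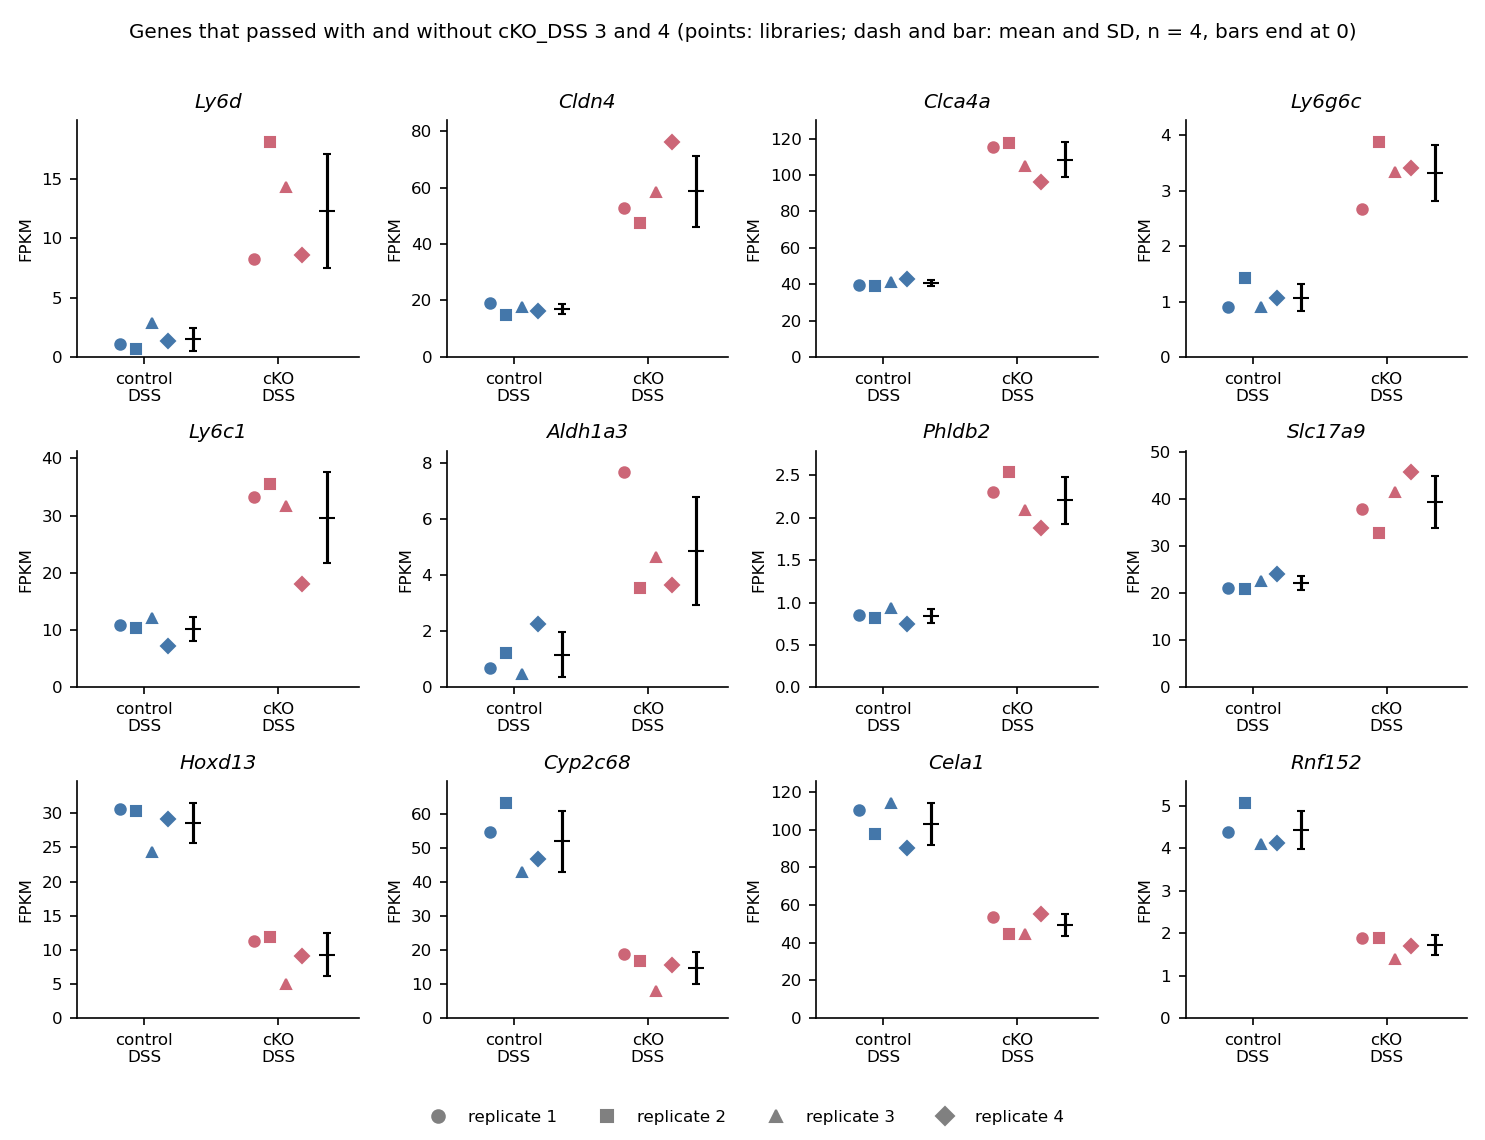
FPKM of 12 held genes in each DSS library (vertical axes start at 0), control in blue and cKO in red, with marker shape giving the replicate number and the dash and bar giving the mean and SD (n = 4). The groups do not overlap in any panel; Ly6d ran from 0.655 to 2.88 FPKM in WT_DSS and from 8.25 to 18.1 FPKM in cKO_DSS.

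The held genes that fell included a posterior Hox gene, a cytochrome P450 and secreted proteins. Hoxd13, the Hox gene at the posterior end of the HoxD cluster (chr2:74668310-74671599), was at 30.6, 30.4, 24.3 and 29.1 FPKM in WT_DSS 1 to 4 and at 11.3, 11.8, 5.01 and 9.05 FPKM in cKO_DSS 1 to 4. The cKO_DSS mean was 32.5% of the WT_DSS mean (-1.58 ± 0.20, adjusted p = 0.000953). The fall was larger in cKO_DSS 3 and 4, and without them it was -1.23.

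Cyp2c68, a P450 with close copies in its gene cluster that could share reads, was at 54.8, 63.3, 43.0 and 46.7 FPKM in WT_DSS 1 to 4 and at 18.8, 16.8, 7.98 and 15.6 FPKM in cKO_DSS 1 to 4. Its mean was 28.5% of control (-1.79 ± 0.22, adjusted p = 0.000953). Cela1, an elastase-type serine protease, was at 90.1 to 114 FPKM in WT_DSS and at 44.4 to 55.4 FPKM in cKO_DSS, and its mean was 48.1% of control (-1.04 ± 0.15). Rnf152, a lysosomal ubiquitin ligase that restrains mTOR complex 1, was at 4.11 to 5.07 FPKM in WT_DSS and at 1.38 to 1.89 FPKM in cKO_DSS, and its mean was 38.8% of control (-0.998 ± 0.12).

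The other held falls were Mettl7a3, a methyltransferase-like protein (-1.58), Saa1, an acute phase apolipoprotein made by colonocytes (-0.91), Sun2, a protein of the inner nuclear membrane (-0.72), and Eno3, the muscle-type enolase (-0.69). Saa1 and Mettl7a3 have near-identical copies, so their reads could be split. The falls of 2010106E10Rik (-1.07) and Gm10036 (-3.12) complete the set and were chosen after their values were seen. When any 1 of the 8 DSS libraries was left out of the full comparison, 23 of the 27 held genes stayed past the threshold every time. The others were Eno3, which passed only without cKO_DSS 4, Sun2, which failed without WT_DSS 1, WT_DSS 2 or cKO_DSS 3, Saa1, which failed without WT_DSS 2, and Rundc3b.

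The 250 bases before the RefSeq transcription start (GRCm38.p6, the mm10 assembly) are shown for 2 held genes that rose and 2 that fell, chosen after their values were seen. They let the sequence at the start of genes described above be read. The Ly6g6c window lies inside the longer gene model that was counted. They run 5′ to 3′ on the gene's strand, with capitals marking matches to the motifs named after them.
Cldn4, chr5:134946935-134947184, minus strand: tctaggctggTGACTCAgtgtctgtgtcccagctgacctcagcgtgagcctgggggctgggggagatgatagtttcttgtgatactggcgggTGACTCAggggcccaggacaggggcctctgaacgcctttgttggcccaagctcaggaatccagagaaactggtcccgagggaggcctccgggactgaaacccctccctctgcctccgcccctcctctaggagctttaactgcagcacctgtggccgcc
Ly6g6c, chr17:35067075-35067324, plus strand: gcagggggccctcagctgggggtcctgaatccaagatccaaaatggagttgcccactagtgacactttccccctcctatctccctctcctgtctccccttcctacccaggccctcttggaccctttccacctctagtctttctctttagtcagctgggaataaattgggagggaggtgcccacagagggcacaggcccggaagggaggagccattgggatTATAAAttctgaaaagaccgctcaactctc
Hoxd13, chr2:74667975-74668224, plus strand: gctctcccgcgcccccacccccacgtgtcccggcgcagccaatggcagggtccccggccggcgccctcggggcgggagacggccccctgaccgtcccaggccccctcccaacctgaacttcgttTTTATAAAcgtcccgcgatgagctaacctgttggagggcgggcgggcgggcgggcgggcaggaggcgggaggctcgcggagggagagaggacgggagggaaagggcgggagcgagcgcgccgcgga
Cyp2c68, chr19:39741102-39741351, minus strand: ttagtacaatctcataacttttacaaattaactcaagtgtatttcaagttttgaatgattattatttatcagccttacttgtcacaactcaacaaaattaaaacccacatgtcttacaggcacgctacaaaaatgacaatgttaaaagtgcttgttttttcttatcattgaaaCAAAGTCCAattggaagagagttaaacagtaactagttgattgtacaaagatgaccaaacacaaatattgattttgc

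Motifs were searched on both strands in the same 250 bases. The Cldn4 window held the AP-1 letters TGANTCA at 240 and 158 bases before the start, and 7.82% of 27025 gene symbols with a promoter held that motif. The TATA letters TATAAA stood 30 bases before the start of Ly6g6c. In Hoxd13 they stood farther away, as 2 overlapping matches on opposite strands at 126 and 124 bases before the start. These letters were held by 14.3% of symbols and by 8.3% of the kept genes with a promoter. The HNF4 letters CAAAGTCCA stood 77 bases before the start of Cyp2c68, with 0.451% of symbols holding them. The FOXO letters GTAAACA (3.54% of symbols) and the TEAD letters GGAATG (14.4%) were in none of these 4 windows. Of the 269 genes that rose, 181 of 268 symbols had a promoter, and 6.63% of these held the AP-1 letters, against 5.65% of the kept genes with a promoter. These are matches of letters only.

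The genotype difference on water was measured in other libraries, although these 8 entered the filter and the estimate of spread behind the division, and the held genes numbered 2 in the DSS libraries alone. On water 12 of 13255 genes passed the same test (0.0905%) and 2404 had an unadjusted p under 0.05 (18.1%), and 5 of the 27 held genes were among them: Ly6g6c, Clca4a, Gm29051, 3930402G23Rik and Gm45042. The fold change on water had the same sign as after DSS in all 17 held genes that rose and in 8 of the 10 that fell, against 42.1% of all genes with the same sign in both. The exceptions were Hoxd13 (0.23) and Gm10036 (0.91). The same sign was seen in 271 of 450 weakened genes and in 3 of 14 resting genes. An unadjusted p under 0.05 on water with the same sign was found for 16 held genes, 82 weakened genes and 0 resting genes, against 7.58% of all genes. Fold change on water followed GC content in the direction opposite to that after DSS (values are given with the GC trend), and the part of this in the sign counts was not tested.

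The size on water differed from gene to gene. Ly6g6c was at 1.86, 1.67, 1.32 and 1.37 FPKM in the 4 control water libraries and at 5.17, 5.99, 4.84 and 4.89 FPKM in the 4 cKO water libraries, a difference of 1.29 (adjusted p = 9.51e-05), close in size to that after DSS. Ly6d was at 0.270 to 0.945 FPKM on water in controls and at 0.617 to 1.88 FPKM in cKO, with overlapping groups and a difference of 0.37 (adjusted p = 0.474). Cldn4 was at 12.4 to 17.3 FPKM in controls and at 17.5 to 26.7 FPKM in cKO on water (0.60, adjusted p = 0.133).

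**Figure D3:**
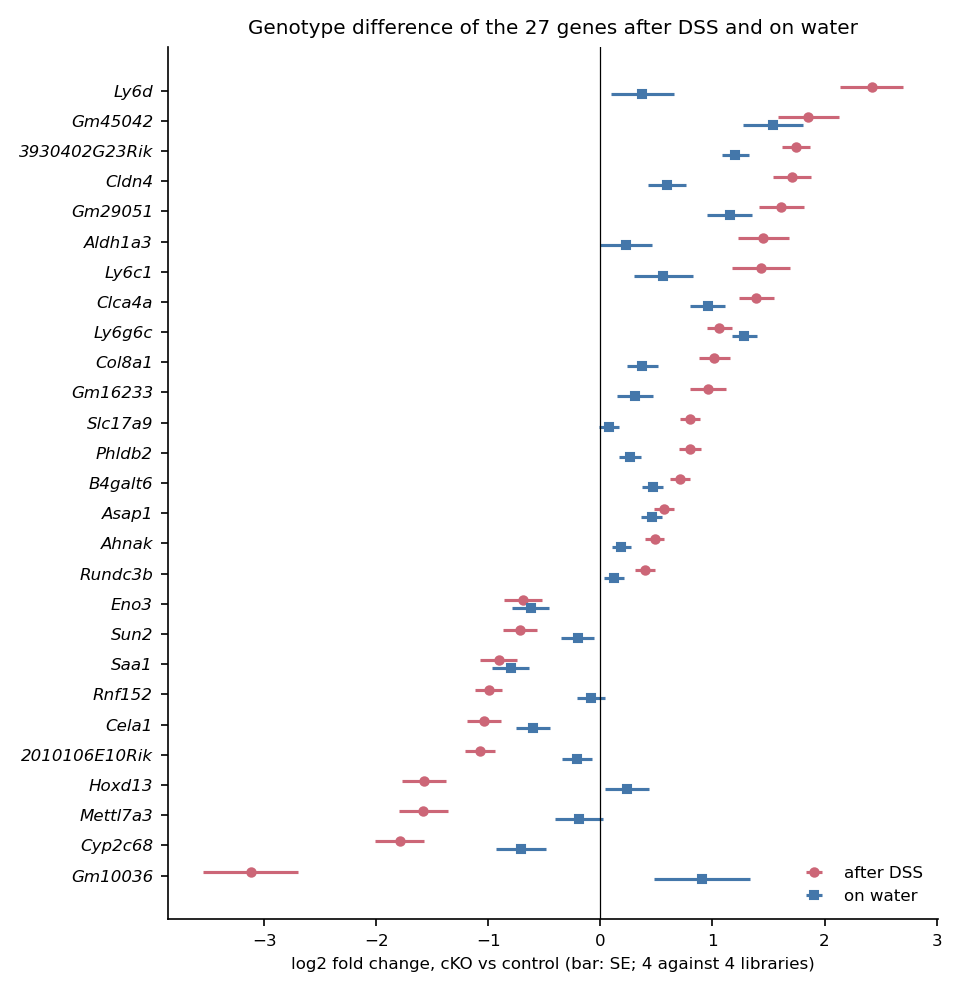
Log2 fold change of cKO against control for the 27 held genes after DSS (red circles) and on water (blue squares), with bars giving the SE from 4 against 4 libraries. Ly6g6c lay at 1.06 and 1.29, Ly6d at 2.42 and 0.37, and Hoxd13 at -1.58 and 0.23 after DSS and on water.

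Whether the genotype difference itself changed with DSS was tested as an interaction over all 16 libraries, in which DSS cannot be told apart from the sex-linked difference between the DSS and water libraries. It passed for 20 genes (0.151%), and 3074 had an unadjusted p under 0.05 (23.2%). Without cKO_DSS 3 and 4 no gene passed in limma, and 1288 had an unadjusted p under 0.05 (9.72%). Single libraries moved the count widely, to 1240 without cKO_DSS 2, 393 without cKO_DSS 1, 125 without WT_DSS 3, 2 without cKO_DSS 3, 1 without WT_DSS 1 and 0 without WT_DSS 2, WT_DSS 4 or cKO_DSS 4, and to between 2 and 10 without any 1 water library. For Hoxd13 the genotype difference was -1.58 after DSS and 0.23 on water (interaction -1.81, adjusted p = 0.0251). Slc17a9 differed by 0.72 (adjusted p = 0.0401). Hk2, the hexokinase that starts glycolysis, was at 30.5 to 32.9 FPKM in WT_DSS and at 40.5 to 48.6 FPKM in cKO_DSS, and its genotype difference was 0.46 after DSS and -0.35 on water (interaction 0.81, adjusted p = 0.0239). The septin Septin10 (-0.68), the ezrin-family membrane linker Rdx (-1.06) and the chromatin protein Nucks1 (-0.81) were the other genes with the smallest interaction p among those named. For Ly6d the interaction was 2.04 (adjusted p = 0.0509) and for Cldn4 1.12 (adjusted p = 0.0605), so neither passed.

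Some growth-factor response genes were higher in cKO_DSS than in WT_DSS, and none passed as lower. All of those called were weakened without cKO_DSS 3 and 4. Rises and falls in this list and those that follow are of cKO_DSS against WT_DSS. Over all genes, 2.03% were called higher and 1.67% lower. Immediate early genes, which encode short-lived transcription factors switched on by receptor signalling and by stress, rose in 9 of 21 members measured and fell in 0, with a median fold change of 0.74. Egr1 was at 43.3, 35.2, 37.8 and 41.8 FPKM in WT_DSS 1 to 4 and at 66.1, 84.2, 101.1 and 115 FPKM in cKO_DSS 1 to 4. All cKO_DSS libraries exceeded all WT_DSS libraries, with 3 and 4 highest (1.17 ± 0.17, adjusted p = 0.00292). Fosb was at 9.09, 9.33, 11.1 and 14.3 FPKM in WT_DSS 1 to 4 and at 18.4, 23.3, 28.8 and 47.0 FPKM in cKO_DSS 1 to 4 (1.28 ± 0.27, adjusted p = 0.0203). Without cKO_DSS 3 and 4 the differences of Egr1 and Fosb were 0.90 and 0.88 (adjusted p = 0.0611 and 0.204). Nr4a1, Ier3 and Maff rose by 1.06, 0.80 and 0.74, and the neuronal early gene Arc, outside the list, rose by 1.23.

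Genes that restrain MAP kinase signalling rose in 7 of 15 members and fell in 0 (median 0.58). Dusp5, a phosphatase that acts on ERK, was at 5.54, 4.90, 5.15 and 6.18 FPKM in WT_DSS 1 to 4 and at 9.82, 11.9, 8.001 and 16.4 FPKM in cKO_DSS 1 to 4. The groups did not overlap, although the cKO_DSS values spread widely (0.92 ± 0.20, adjusted p = 0.0238). Errfi1, an EGF receptor inhibitor, rose by 0.81, and the Sprouty proteins Spry1 and Spry4 rose by 0.55 and 0.58. The EGF receptor ligands Hbegf and Areg rose by 0.91 and 0.80, 2 of 10 ligand and receptor genes measured. None of the 9 early genes or the 7 restraining genes passed without cKO_DSS 3 and 4, 2 of the 9 and 1 of the 7 passed without WT_DSS 2, and 8 of the 9 and 5 of the 7 passed without cKO_DSS 1 and 2.

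Repair and junction lists shared members with the held set, and 2.03% of all genes were called higher. LY6 and uPAR family genes rose in 5 of 14 members and fell in 0 (median 0.49). Beside the 3 held members these were Ly6m, at 16.7 to 23.4 FPKM in WT_DSS and 44.1 to 59.6 FPKM in cKO_DSS (1.33), and Plaur, the urokinase receptor (0.93). Genes linked to fetal-like repair rose in 7 of 19 (median 0.42), among them the interleukin 1 receptor antagonist Il1rn (0.65). Junction genes rose in 4 of 21, with Cldn4 followed by the polarity protein Pard6b (0.75), Cldn23 (0.52) and Myzap (0.49). Without cKO_DSS 3 and 4, 3 of the 5, 2 of the 7 and 1 of the 4 passed, and without WT_DSS 2, 4 of the 5, 2 of the 7 and 2 of the 4 passed.

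Genes closer to the insulin branch of mTOR complex 2 changed in part. Of 31 insulin signalling genes and FOXO targets, 4 rose and 1 fell, against 2.03% and 1.67% of all genes. The insulin receptor substrate Irs2 was at 9.10, 9.23, 10.2 and 8.46 FPKM in WT_DSS 1 to 4 and at 16.4, 16.9, 19.7 and 19.8 FPKM in cKO_DSS 1 to 4. Its groups did not overlap (0.90 ± 0.14, adjusted p = 0.00399). Klf2 rose by 1.24, and Pik3r3, a regulatory subunit of PI3 kinase, fell by 0.61 on the log2 scale. Of these 5 genes, none passed without cKO_DSS 3 and 4, 2 without WT_DSS 2, 2 without cKO_DSS 3, 3 without WT_DSS 1, WT_DSS 4 or cKO_DSS 4, and 3 with the GC correction. The kinase Sgk1, a substrate of mTOR complex 2, differed by 0.25 ± 0.28 (adjusted p = 0.661).

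**Figure D4:**
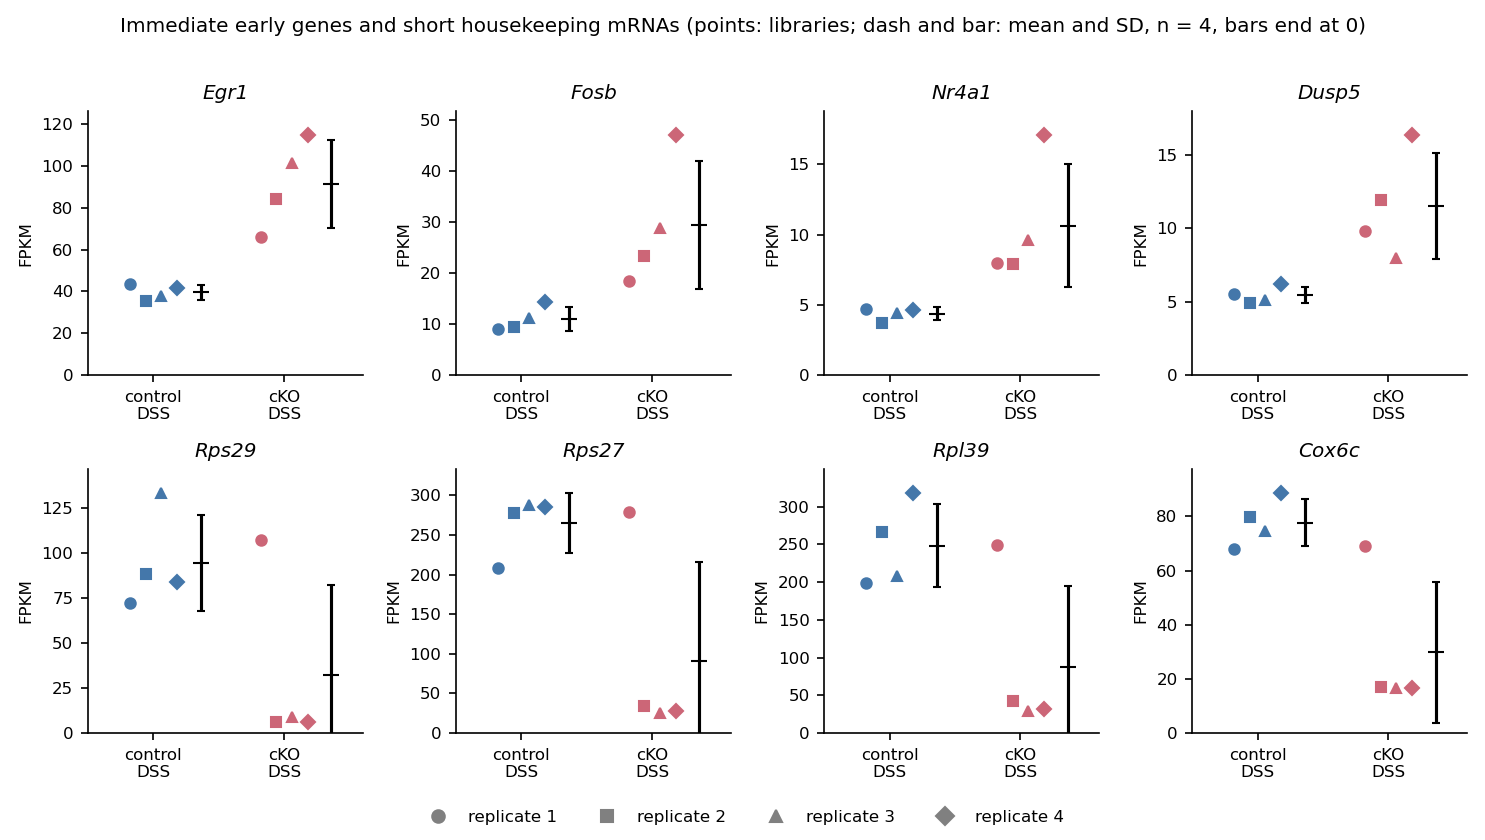
FPKM in each DSS library for 3 immediate early genes and Dusp5 (top row) and for 4 genes of ribosomal proteins and cytochrome oxidase (bottom row), with markers and bars as mean and SD (n = 4, bars end at 0). In the top row the cKO_DSS values of Egr1 lie between 66.1 and 115 FPKM, above all control values; in the bottom row cKO_DSS 1 lies among the controls (107 FPKM for Rps29) and cKO_DSS 2 to 4 lie far below (5.91 to 8.88 FPKM).

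A set of genes for ribosomal proteins and the respiratory chain divided the cKO_DSS libraries in another way. Rps29, a protein of the small ribosomal subunit, was at 72.6, 88.4, 134 and 84.2 FPKM in WT_DSS 1 to 4 and at 107, 5.91, 8.88 and 6.19 FPKM in cKO_DSS 1 to 4. Here cKO_DSS 1 lay within the control range, and cKO_DSS 2, 3 and 4 were far below it. Rps27, Rps21, Rpl39 and Rpl38, and Cox6c of cytochrome oxidase, showed the same order, and the groups overlapped for each. Cox6c was at 68.0, 79.8, 74.7 and 88.6 FPKM in WT_DSS 1 to 4 and at 69.0, 16.9, 16.7 and 16.8 FPKM in cKO_DSS 1 to 4. The fitted difference of Rps29 was -2.62 ± 0.68 (adjusted p = 0.0457), and -1.77 without cKO_DSS 3 and 4 (adjusted p = 0.395).

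Cytosolic ribosomal protein genes fell in 6 of 60 members and rose in 0 (median -0.17), against 1.67% of all genes called lower. None of the 6 passed without cKO_DSS 2, cKO_DSS 3, cKO_DSS 4, WT_DSS 1 or WT_DSS 2. Over the list, 19 of 60 genes had cKO_DSS 1 within the control range and the other cKO_DSS libraries below it, against 3.45% of all kept genes, and 0, 0 and 2 had that pattern with cKO_DSS 2, 3 or 4 as the library in range. Nuclear-encoded respiratory chain genes fell in 11 of 64 and rose in 0 (median -0.28), and 11 of 64 had the same pattern with cKO_DSS 1 in range. None of the 11 falls passed without WT_DSS 2 or cKO_DSS 3. Ndufa1 of complex I was at 99.4 to 141 FPKM in WT_DSS and at 91.9, 37.7, 45.4 and 44.4 FPKM in cKO_DSS 1 to 4 (-1.12 ± 0.21). Several of these gene families have near-identical processed copies, so their reads could be split. Over all called genes, 23 of 491 had this pattern, and their median gene length was 793 bases, against 3640 bases in all kept genes. The median was 1726 bases in the 19 ribosomal protein genes with the pattern and 1916 bases in the 11 respiratory chain genes. What set cKO_DSS 1 apart from cKO_DSS 2 to 4, and the part of gene length in it, was not tested.

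By the rule 14 genes rested on cKO_DSS 3 and 4, and 12 of them were protein-coding genes with a gene name. The falls were Rpl37a (-1.47), the complex I subunit Ndufa3 (-0.95), the translocon subunit Sec61g (-0.74), the glycogenin Gyg (-0.48) and Frrs1 (-0.40). Rpl37a was at 140, 177, 176 and 187 FPKM in WT_DSS 1 to 4 and at 177, 58.1, 38.0 and 33.4 FPKM in cKO_DSS 1 to 4, the same split of cKO_DSS 1 from the others. The rises were the forkhead factor Foxp4 (0.83), the antiviral membrane protein Ifitm2 (0.72), Gtpbp6 (0.65), the trafficking protein Yif1b (0.58), periplakin Ppl (0.51), the integrin subunit Itga3 (0.45) and the keratin-associated Fam83h (0.38). Itga3 was at 32.3, 30.7, 38.8 and 32.0 FPKM in WT_DSS 1 to 4 and at 37.9, 40.0, 55.2 and 52.0 FPKM in cKO_DSS 1 to 4. Its cKO_DSS 1 value lay within the control range, cKO_DSS 2 lay just above it, and 3 and 4 lay well above. Groups did not overlap in 7 of the 14 genes, in 403 of the 450 weakened genes and in all 27 held genes, against 10.0% of all genes. Both the call on these same values and the division itself favour this.

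Among the 3 fits after DSS, the fold change rose with the GC content of transcripts where cKO_DSS 3 and 4 were included. Over 12867 genes, 97.1% of those kept, the Spearman correlation of fold change with GC content was 0.375 with all libraries, -0.0560 without cKO_DSS 3 and 4, and 0.553 without cKO_DSS 1 and 2. These correlations are across genes, which are not replicates, and describe these libraries only. In the tenth of genes with the highest GC content, the median fold change was 0.21 with all libraries, 0.04 without cKO_DSS 3 and 4 and 0.39 without cKO_DSS 1 and 2. In the tenth with the lowest it was -0.12, 0.06 and -0.28. On water the trend was the opposite, with a correlation of -0.523 and median fold changes of -0.21 in the genes with the highest GC content and 0.20 in those with the lowest. Median GC content was 54.9% in weakened genes that rose and 48.0% in those that fell, 59.8% in resting genes that rose, and 48.7% and 52.3% in held genes that rose and fell, against 49.5% in all genes with a value. WT_DSS 3 also stood apart, since expression against the mean of all libraries followed GC content with a correlation of 0.0178 there and of -0.483 to -0.403 in WT_DSS 1, 2 and 4. When each library was corrected for GC content, 535 genes passed, among them 398 of the 491 and all 27 held genes. The part of GC content in single genes was not tested.

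**Figure D5:**
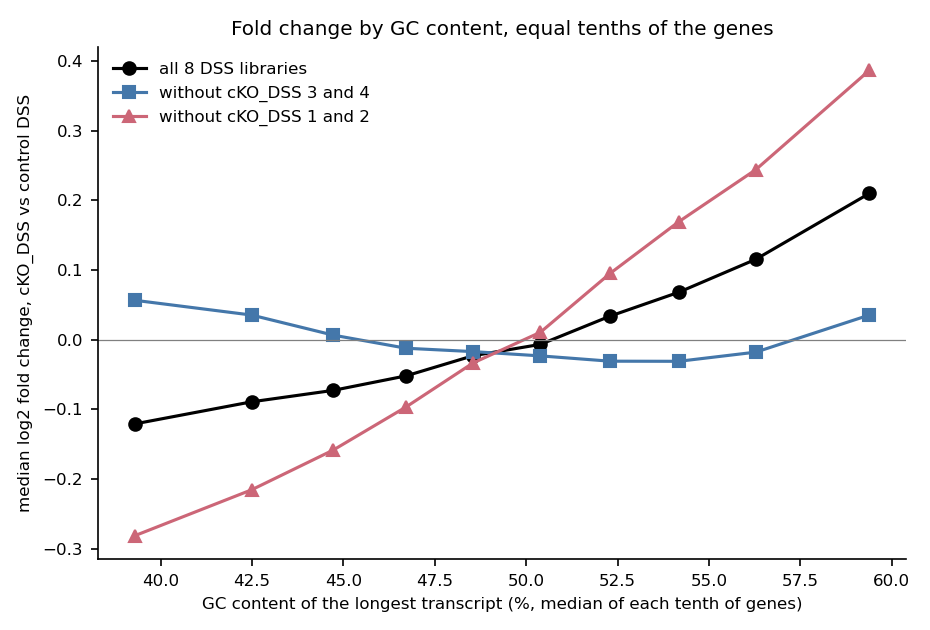
Median log2 fold change of cKO_DSS against control (vertical axis) in 10 equal bins of genes ordered by the GC content of the longest transcript (horizontal axis, %). With all 8 libraries it runs from -0.12 to 0.21, without cKO_DSS 3 and 4 it stays between -0.03 and 0.06, and without cKO_DSS 1 and 2 it runs from -0.28 to 0.39; the 3 lines share the WT_DSS libraries.

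Metabolic genes were called in both directions, against 2.03% of all genes called higher and 1.67% called lower. Cytochrome P450 genes fell in 4 of 21 and rose in 0, with Cyp2c68 followed by Cyp2f2 (-1.01), Cyp2d12 (-0.76) and Cyp2d10 (-0.60). In glycolysis, Hk2 (0.46) and Eno1 (0.44) rose while Eno1b (-1.65) and Pdk1 (-0.45) fell, 4 of 28, and Eno1 and its copy Eno1b could share reads. Of retinoid genes, Aldh1a3 and Rdh10 (0.42) rose and Adh1 (-0.74) fell, 3 of 15. The fatty acid desaturases Fads1 (-0.52) and Fads2 (-0.47) fell, 2 of 33 lipid synthesis genes. No fatty acid oxidation gene of 25 passed. Without WT_DSS 2, none of the 4 glycolysis genes and 2 of the 4 P450 genes passed.

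Some transport and defence genes fell, against 1.67% of all genes called lower, and none passed as a rise. Slc37a2, a sugar phosphate exchanger of surface colonocytes, was at 62.2, 78.3, 59.3 and 78.4 FPKM in WT_DSS 1 to 4 and at 31.5, 23.2, 20.95 and 31.7 FPKM in cKO_DSS 1 to 4. No cKO_DSS library reached the control range (-1.35 ± 0.25, adjusted p = 0.0123), and the difference was -1.32 without cKO_DSS 3 and 4. The iron exporter Slc40a1 (-0.71) and the magnesium channel Trpm6 (-0.57) also fell, making 3 of 32 transport genes, with 0 rises. Antimicrobial and acute phase genes fell in 4 of 25 and rose in 0. Beside Saa1 these were Defb37 (-1.72), Defb45 (-0.75) and Nox1, an oxidase that makes superoxide at the epithelial surface. Nox1 was at 16.04, 22.8, 16.8 and 22.0 FPKM in WT_DSS 1 to 4 and at 9.97, 7.97, 9.22 and 9.73 FPKM in cKO_DSS 1 to 4 (-0.98 ± 0.16, adjusted p = 0.00748). Without WT_DSS 2, 1 of the 3 transport genes and 1 of the 4 defence genes passed, and without cKO_DSS 3 and 4, 0 of the 3 and 1 of the 4.

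Immune response genes were called singly, against 2.03% of all genes called higher and 1.67% called lower. In the interferon gamma and MHC class II list, Ido1, which breaks down tryptophan (-0.87), and the chemokine Cxcl9 (-0.77) fell, 2 of 29, and the list median was -0.28. No type I interferon gene of 31 passed, and the smallest p belonged to Oas2 (0.80 ± 0.24, adjusted p = 0.0786). Of 24 cytokine and NF-kB feedback genes, Socs3 (0.93), Il1rn (0.65) and Bcl3 (0.61) rose. The clock repressor Nr1d1 was at 12.5, 17.3, 16.5 and 10.4 FPKM in WT_DSS 1 to 4 and at 3.44, 2.97, 6.31 and 8.88 FPKM in cKO_DSS 1 to 4. Its fall was larger in cKO_DSS 1 and 2, at -1.83 without cKO_DSS 3 and 4 against -1.32 with all (adjusted p = 0.0499), and it was the 1 clock gene of 16 that passed.

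Metallothionein Mt1, a zinc-binding protein, was at 54.2, 56.3, 62.0 and 165 FPKM in WT_DSS 1 to 4 and at 294, 324, 280 and 284 FPKM in cKO_DSS 1 to 4. WT_DSS 4 stood well above the other controls but below every cKO_DSS library (1.97 ± 0.33, adjusted p = 0.00894). Mt1 was the only called gene of 14 metallothioneins and zinc transporters, against 3.70% of all genes called. Nt5c1a, a cytosolic nucleotidase, was at 3.66, 0.742, 5.50 and 2.20 FPKM in WT_DSS 1 to 4 and at 15.1, 11.3, 17.7 and 17.2 FPKM in cKO_DSS 1 to 4. It had the largest rise of the named weakened genes (2.16 ± 0.31, adjusted p = 0.00305).

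Markers of other cells moved with genotype to a small extent, and bulk RNA cannot tell fewer cells of a type from less RNA per cell. The summed level of 13 fibroblast and matrix markers was 19.4 to 23.7 FPKM in WT_DSS and 15.3 to 17.5 FPKM in cKO_DSS, where 7 passed the filter and Sparc fell (-0.69). Neutrophil markers summed to 32.6 to 40.1 FPKM in WT_DSS and 40.5 to 78.6 FPKM in cKO_DSS, with 0 of 2 kept members called. Ly6g, which is also a LY6 family member, made up most of that sum. Of the 11 listed neutrophil markers, 1, Ngp, was at 0 in all 8 libraries. Squamous markers summed to 19.5 to 26.9 FPKM and 34.8 to 41.4 FPKM, mostly from Sprr1a, which rose (0.84), while Krt5, Trp63 and Sprr3 were at 0. Tuft cell markers summed to 14.7 to 19.1 FPKM and 22.4 to 29.1 FPKM, with Sh2d6 (0.81) and Sh2d7 (0.58) rising, 2 of 10. In goblet cells 1 of 20 markers rose (Bcas1, 0.61), in absorptive colonocytes 2 of 15 rose and 3 fell, and in crypt progenitors 1 of 13 fell (Smoc2, -0.61). Over all genes 2.03% were called higher and 1.67% lower, so 1 call in a list this short is not read as a change of the cell type. Absorptive colonocyte markers summed to 6029 to 7058 FPKM in WT_DSS and 7273 to 9558 FPKM in cKO_DSS. Sums overlapped for goblet markers (8497 to 12085 and 8420 to 11883 FPKM) and crypt markers (183 to 194 and 180 to 214 FPKM). None of 14 T cell, 12 enteroendocrine, 5 B cell or 6 macrophage markers passed. The part of these cells in the gene differences was not tested.

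Of the held genes, 6 of 27 lay on chromosome 15, which carries Rictor, against 513 of 13255 kept genes (3.87%). The count was 25 of 450 in weakened genes (5.56%) and 32 of 491 in all called genes (6.52%). The held genes there were Asap1, Ly6d, Ly6c1, Sun2, Mettl7a3 and Cela1, and they lay 57.3 to 93.9 Mb from Rictor. Ly6d and Ly6c1 lay 280 kb apart, and Mettl7a3 and Cela1 lay 334 kb apart. Asap1, Ly6d and Ly6c1 rose, and Sun2, Mettl7a3 and Cela1 fell.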

How the data were processed

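Total RNA of colonic epithelial cells was sequenced in 16 libraries of 4 groups, grouped and numbered as in the labels, and the 8 DSS libraries are compared here. The deposited values are FPKM per gene and library, made by the authors with featureCounts 1.5.0-p3 and mm10 per the submitters' processing notes, which also name DESeq2 1.20.0; no source used here gives the aligner, annotation or strand setting. FPKM times gene length gave whole reads, within 0.05 of a read, so depth is known, at 13.9 to 15.8 reads per kilobase at 1 FPKM in the DSS libraries.

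Values were analysed as log2(FPKM + 1) with limma 3.58.1 in R 4.3.3 (1 mean for each of the 4 groups, eBayes with trend), two-sided, with Benjamini-Hochberg adjustment over all 13255 kept genes. The fit was repeated without cKO_DSS 3 and 4 and without cKO_DSS 1 and 2. GC content came from the longest GENCODE M21 transcript, and promoters from RefSeq, with 27025 symbols. The alternatives covered pseudocount, filter, normalization, weights, replicate block, limma voom on recovered reads, GC and length corrections by loess (span 0.5), the 8 libraries alone, and leaving out each library.

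Members, libraries to leave out and lists were chosen with earlier results of these data known. Named are Rictor and the mTOR list, held protein-coding genes, the 8 largest rises and falls of the other classes, up to 4 called genes per list by smallest p, and the 5 smallest interaction p, without predicted genes. The list of AKT, SGK and PKC kinases is not reported here as a whole.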

Additional observations from a re-analysis of the deposited data

Results flagged for a closer look

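Among 268 groups of 4 libraries checked for a library far from the others, 21 were marked, where chance marks about 1 in 20. Of these, 7 concerned cKO_DSS 1 in ribosomal protein and respiratory chain genes. FPKM there was 107.3 for Rps29, 278.4 for Rps27, 178.5 for Rps21, 248.8 for Rpl39, 63.1 for Rpl38, 69.0 for Cox6c and 91.9 for Ndufa1, while the other cKO_DSS libraries did not exceed 45.4 FPKM in any of these genes. Col8a1 was also highest in cKO_DSS 1, at 3.20 FPKM against 2.38 to 2.46 in the others.

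In other cKO_DSS libraries, Maff was high in cKO_DSS 4 (15.4 FPKM), Socs3 was high (16.5 FPKM), Fads1 high (2.69 FPKM) and Areg low (81.9 FPKM) in cKO_DSS 3, and Pdk1 was high in cKO_DSS 2 (6.42 FPKM). Among the controls, Mt1 was high (164.6 FPKM) and Fads2 low (106.6 FPKM) in WT_DSS 4, Bcas1 (18.7 FPKM) and Cyp2d10 (20.1 FPKM) were high in WT_DSS 3, and Spry1 (2.73 FPKM), Rps27 (208.8 FPKM) and Prdx6 (295.9 FPKM) were low in WT_DSS 1. Xist was at 20.46 FPKM in WT_DSS 2.

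The genotype difference after DSS minus that on water passed the interaction test for 7 genes described or listed here. It was 0.81 for Hk2, -1.81 for Hoxd13, -0.81 for Nucks1, -1.06 for Rdx, -0.68 for Septin10, 0.72 for Slc17a9 and 1.19 for Yif1b. Without cKO_DSS 3 and 4 no gene passed the interaction test in limma.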

How the results depend on the processing

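The 491 calls became 209 with no filter, 96 in the 8 DSS libraries alone, 3485 with sample quality weights, 33 without cKO_DSS 3 and 4, 2129 without cKO_DSS 1 and 2, and 14 without WT_DSS 2 and cKO_DSS 3 and 4, a setting chosen after seeing the data. Leaving out single libraries gave 78 to 886 calls. The 27 held genes became 15 with a pseudocount of 0.1, 16 with a filter at 5 FPKM, 2 in the 8 libraries alone, 12 with weights, 44 with limma voom, 45 with the GC correction, and 12 to 22 without single WT_DSS libraries (also chosen after seeing the data). The 20 interaction calls became 4 with no filter, 46 at 5 FPKM, 11 with quantile normalization, 36 with a shift of medians, 3728 with weights, 42 with voom, 9 with the GC correction, 0 without cKO_DSS 3 and 4, 3174 without cKO_DSS 1 and 2, 0 without WT_DSS 2 and cKO_DSS 3 and 4, and 0 to 1240 without single libraries. The Rictor difference passed with weights (-0.51), with the length correction (-0.39) and without cKO_DSS 1 and 2 (-0.55). It also passed without WT_DSS 3 (-0.49, adjusted p = 0.0370 in limma) and without cKO_DSS 1 (-0.46, adjusted p = 0.0431). Without single libraries it ran from -0.49 to -0.32. The causes were not tested.

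A replicate block gave 429 calls, 15 held genes and 13 interaction calls. Deviations of libraries with the same number correlated at -0.0156, 0.121, 0.300 and -0.135, so the numbers were not taken as pairing; only replicate 3 correlated best with its own number.

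Of 108 called genes named by the rule, 29 stayed past the threshold without WT_DSS 2, 46 without WT_DSS 1, 41 without cKO_DSS 3, 53 without cKO_DSS 4, 66 without WT_DSS 4 and 102 without cKO_DSS 1. All kept their direction in each of these fits. A count model with edgeR on the recovered reads was planned and not run, since the deposited unit is FPKM. Genes near 1 FPKM rest on few reads, and smaller differences in them were not detectable at this depth.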
